A study of Mus musculus with 32 samples.

Results

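The wells of YUMM3.3 mouse melanoma cells that received IFN-γ and Activin-A together for 12 hrs were compared with the wells left untreated for 12 hrs, across all genes with sufficient counts. The 8 wells were taken by their labels, 4 with both factors and 4 untreated, out of 32 wells in the series. YUMM3.3 is a Braf-mutant cell line of mouse origin, and mRNA was measured by BRB-seq, a method that gives each well a barcode, pools the wells early and reads transcripts near their 3′ end. The series held 8 groups of 4 wells: no factor, IFN-γ, Activin-A or both, each for 4 or 12 hrs, and asked how the factors act together on melanoma cells outside a tumor. By the labels, IFN-γ was given at 20 ng/ml and Activin-A at 40 ng/ml. Parts of the study's text give another dose of Activin-A for these wells. All groups share the cell line, and the labels name no genetic change that separates them. Wells were seeded in quadruplicate in 6-well plates of 1 line.

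IFN-γ binds a receptor that signals through the kinases JAK1 and JAK2 to transcription factors that bind GAS elements in the nucleus, and the induced factor IRF1 and its relatives then act on ISRE elements of further genes. Activin-A, a dimer of the product of Inhba, binds type II and type I receptor kinases that phosphorylate Smad2 and Smad3, and follistatin (Fst) is a secreted antagonist that binds it. In melanoma, IFN-γ is known for inducing antigen presentation and the checkpoint ligand PD-L1, and Activin-A for effects on matrix, contractile genes and immune evasion.

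Totals were 873147 to 909948 counts in the wells with both factors and 853021 to 1285540 in untreated wells, and levels are given as CPM, that is counts scaled to library size after TMM normalization. The limit that a count of 0 allows, set at 3 counts, was 2.33 to 3.52 CPM in these 8 wells and covers only the error of counting. Mitochondrial transcripts held 1.22% to 1.33% of counts in the 8 wells (exact two-sided permutation p = 0.743), and ribosomal protein transcripts 8.29% to 8.71% with both factors against 8.90% to 9.53% (p = 0.0286, the smallest that 4 against 4 wells can give). The melanocyte genes Dct, Tyrp1, Pmel and Mlana had counts in each of the 8 wells, whereas Mitf had 5 to 12 and Pax3 0 to 8 counts a well. Of 19 markers of immune, endothelial and other cell types, 5 were in the table and 0 had enough counts to be tested, with sums of 13 to 22 counts a well with both factors and 12 to 27 in untreated wells. Of these, Ptprc reached 5, Cd8a 2, Csf1r 3, Cd68 10 and Lyz2 11 counts a well, and their part in the results was not tested. No source says that the wells of a group came from separate cultures, so that p-values measure only the spread between wells, which may be technical. In bulk RNA, a lower level in all cells and fewer expressing cells cannot be told apart. Differences are log2 fold changes (log2FC) ± standard error. P-values are those of the quasi-likelihood F test in edgeR, fitted on the 16 wells at 12 hrs and adjusted over the genes tested by the method of Benjamini and Hochberg. Genes with an adjusted p under 0.05 are called.

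Of 8971 genes tested, 883 were called between both factors and untreated (9.84% of those tested), 551 higher (6.14%) and 332 lower (3.7%). The direction was uneven in size as well as in number. Among called genes, 215 were at least 2-fold higher and 32 at least 2-fold lower, and 27 were higher by a log2FC of at least 4, against 0 lower by that much. The median log2FC was 0.77 over the genes called higher, -0.45 over those called lower and -0.01 over all genes tested. In 730 of the called genes the 4 wells with both factors lay wholly above or below the 4 untreated wells (1127 of all genes tested did so, 12.6%, with 7.56% higher and 5.01% lower), and in the other 153 the wells overlapped. DESeq2's Wald test called 579 genes, 404 higher and 175 lower.

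**Figure D1:**
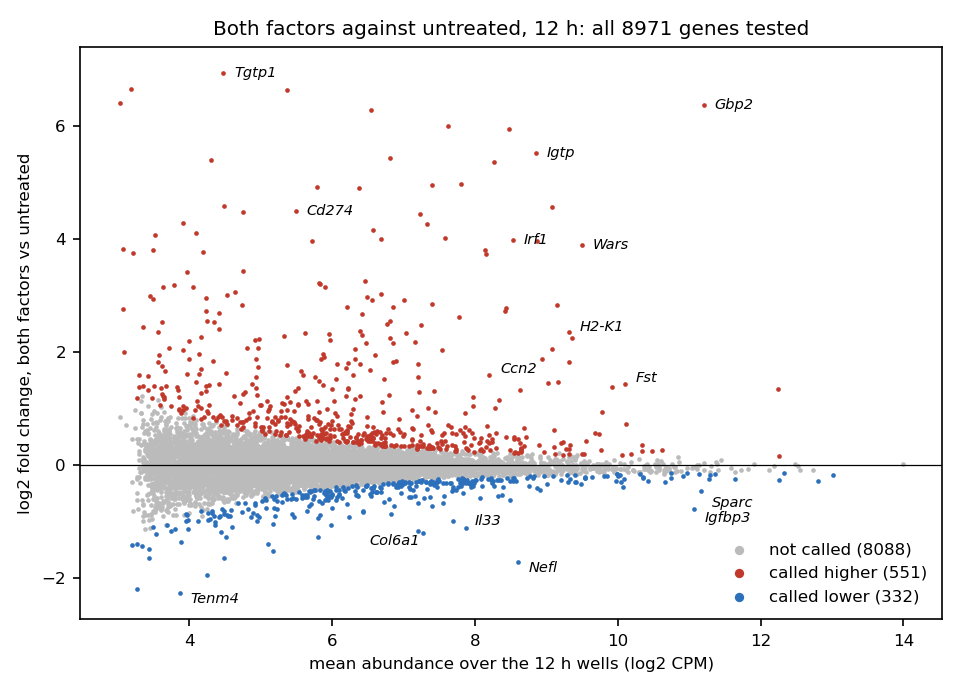
Each dot is a gene, placed by its mean abundance over the 12-h wells (log2 CPM) and its log2FC for both factors against untreated. The 551 genes called higher reach 6.94 and the 332 called lower reach -2.28.

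Of the 12 genes with the highest log2FC among called genes with 10 or more counts on average over the 8 wells and no overlap, 7 were interferon-inducible GTPases of the guanylate-binding and immunity-related families. Gbp2 (ENSMUSG00000028270), a guanylate-binding protein that attacks vacuoles of intracellular microbes, had 66.1, 44.0, 41.9 and 65.8 CPM in untreated wells and 4617, 4405, 4628 and 4487 CPM with both factors. Its log2FC was 6.37 ± 0.07 (82.6-fold, adjusted p = 1.08e-90). Igtp (ENSMUSG00000078853), an immunity-related GTPase, had 17.1, 24.3, 17.6 and 21.2 CPM in untreated wells and 956, 879.9, 911 and 924 CPM with both factors, a log2FC of 5.51 ± 0.10 (adjusted p = 1.26e-72). Il18bp (ENSMUSG00000070427), which encodes a secreted binder of interleukin-18, had 2.33, 0, 3.3 and 3.53 CPM in untreated wells and 159, 183, 199 and 169 CPM with both factors, that is 9 against 626 counts and a ratio of rates of 82.0 (exact 95% counting interval 42.9 to 180.2) (adjusted p = 1.50e-45). That the wells of these genes do not overlap was a condition of their choice.

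Of 9 guanylate-binding proteins with counts, 5 had enough to be tested, and these 5 were called higher, with Gbp3 at 5.95 and Gbp7 at 6.00. Gbp6 and Gbp4 had 6 and 9 counts over the untreated wells and ratios of rates of 25.9 (exact 95% counting interval 11.6 to 72.0) and 14.4 (exact 95% counting interval 7.32 to 32.4). Of 8 immunity-related GTPases 7 were tested and called higher. Members near 0 in untreated wells passed the filter on low counts through their wells with IFN-γ, so that these counts are partly set by the filter, and with at least 10 counts required in every well 2 and 3 were left to call. The GTPases included Iigp1 (5.36), Ifi47 (4.98), Irgm2 (4.16) and Irgm1 (3.97), and Tgtp2, with 9 counts over the untreated wells and a ratio of rates of 23.5 (exact 95% counting interval 12.1 to 52.1). Zbp1, a sensor of Z-form nucleic acids that can start necroptosis, rose from 19 to 714 counts, a ratio of rates of 44.3 (exact 95% counting interval 28.2 to 74.1), and Psmb9, a subunit of the immunoproteasome, rose by 4.96 ± 0.15 on the log2 scale. Tgtp1 had 1 count over the 4 untreated wells and 159 over the 4 wells with both factors, a ratio of rates of 188 (exact 95% counting interval 33.2 to 7453). For Apol6, with 3 against 297 counts, the ratio was 117 (exact 95% counting interval 39.6 to 569), and for Gm12185, with 3 against 126 counts, 49.5 (exact 95% counting interval 16.6 to 243). The counts of near-identical genes, such as Tgtp1 and Tgtp2, the guanylate-binding proteins, the Ly6 genes and the class I heavy chains, may hold reads of each other.

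Of 9 genes of interferon receptors, JAKs and STATs counted, 3 rose and 0 fell, with a median log2FC of 0.36. For this list and those below, the shares over all genes tested were 6.14% higher and 3.7% lower. Stat3 (ENSMUSG00000004040), a transcription factor of many cytokines, had 47.5, 52.1, 34.1 and 70.5 CPM in untreated wells and 157, 187, 182 and 201 CPM with both factors, with no overlap and a log2FC of 1.84 ± 0.12 (adjusted p = 1.37e-24). Stat2, a part of the ISGF3 complex, rose by 2.20 ± 0.16. Jak2 rose by 0.72 ± 0.20 (adjusted p = 0.00631), and the call of Jak2 was lost without both factors replicate 2 (adjusted p = 0.0516). The receptor chains did not pass the test, with log2FC of -0.41 for Ifngr1 and -0.16 for Ifngr2, and neither did Jak1 (0.05).

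Of 7 interferon regulatory factors tested, 5 rose and 0 fell (3 to 5 rose over the alternative fits, filters and thresholds), with a median log2FC of 0.55. Irf1 (ENSMUSG00000018899) had 42.0, 46.7, 38.6 and 54.1 CPM in untreated wells and 714, 733, 659 and 739 CPM with both factors, a log2FC of 3.98 ± 0.09 (adjusted p = 5.04e-64). The lowest well with both factors was over 10 times as high as the highest untreated well. Irf9, the DNA-binding part of ISGF3, rose by 1.78 ± 0.15 and Irf7, which amplifies type I interferon transcription, by 1.88 ± 0.19. Irf2, an antagonist of IRF1, rose by 0.55 ± 0.16 (adjusted p = 0.0119) with overlapping wells, and the call of Irf2 was lost without untreated replicate 3 or both factors replicate 1 (adjusted p = 0.0642 to 0.0895). Irf8 rose by 0.41 ± 0.13 (adjusted p = 0.0305), also with overlapping wells, and the call of Irf8 was lost without untreated replicate 1, untreated replicate 2, untreated replicate 4, both factors replicate 2, both factors replicate 3 or both factors replicate 4 (adjusted p = 0.065 to 0.119). Irf3 and Irf5 were at -0.10 and -0.10 and did not pass the test. Of 10 feedback genes of cytokine signaling tested, 3 rose and 1 fell (6.14% and 3.7% of all genes tested). Socs1, which blocks JAK kinases, rose by 2.16 ± 0.14, Socs3 by 1.72 ± 0.14 and Usp18, a protease that removes ISG15 and restrains interferon receptors, by 1.49 ± 0.18. Socs2, a regulator of growth hormone signaling, fell by 1.06 on the log2 scale (adjusted p = 0.00191).

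The promoters of the genes that rose were searched for the letters of the elements named above. RefSeq's promoter table (GRCm38.p6, 250 bases before to 50 after each start) held 7192 of the 8971 genes tested, with 9203 promoters, among them 446 of the 551 genes called higher and 250 of the 332 called lower. GAS was searched as TTC and GAA 3 bases apart, ISRE as GAAA and GAAA 2 bases apart, and the Smad elements as GTCT followed directly by AGAC and as CAGACA, all on both strands. The ISRE letters were in 3.14% of all promoters, in 12.8% of those of genes called higher, in 43.3% of those of genes higher by a log2FC of at least 2, and in 1.22% of those of genes called lower. The GAS letters were in 6.41%, 9.69%, 13.3% and 5.47% of the same groups. CAGACA was in 15% of all promoters, in 12.6% of those of genes called higher and in 14.3% of those of genes called lower, and the palindrome GTCT-AGAC in 0.217% of all and in 0 of both called groups. The shares are descriptions without a test, and a match is not a measured binding site. GAS and ISRE matches can overlap. The table's build differs from the one named for the counts, so that its positions apply to the sequences shown only.

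Promoters of 4 genes that rose are shown from 5′ to 3′ on the gene's strand, because each holds GAS or ISRE letters close to its start; these are in capitals. Irf1 has a GAS match starting 90 bases before the start (chr11:53769764-53770063, plus strand). Gbp2 has an ISRE match on the opposite strand at 59 bases (chr3:142620413-142620712, plus strand). Igtp has a GAS match at 45 and an ISRE match at 34 bases (chr11:58199306-58199605, plus strand). Socs1 has ISRE matches at 83 and 77 bases that overlap and form 1 run of capitals (chr16:10785487-10785786, minus strand). Irf1 is listed with a further start, without a match in its window.
Irf1: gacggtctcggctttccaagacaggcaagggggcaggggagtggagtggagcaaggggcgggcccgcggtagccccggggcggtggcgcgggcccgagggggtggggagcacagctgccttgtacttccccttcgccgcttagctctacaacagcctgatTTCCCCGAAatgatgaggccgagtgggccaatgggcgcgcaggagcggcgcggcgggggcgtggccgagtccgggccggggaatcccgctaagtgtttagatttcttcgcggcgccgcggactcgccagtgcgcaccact
Gbp2: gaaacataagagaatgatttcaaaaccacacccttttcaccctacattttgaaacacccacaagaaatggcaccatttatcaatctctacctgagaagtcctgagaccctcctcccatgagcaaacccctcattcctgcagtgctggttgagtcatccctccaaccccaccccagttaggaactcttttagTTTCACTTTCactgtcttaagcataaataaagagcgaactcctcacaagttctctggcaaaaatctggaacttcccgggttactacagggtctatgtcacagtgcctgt
Igtp: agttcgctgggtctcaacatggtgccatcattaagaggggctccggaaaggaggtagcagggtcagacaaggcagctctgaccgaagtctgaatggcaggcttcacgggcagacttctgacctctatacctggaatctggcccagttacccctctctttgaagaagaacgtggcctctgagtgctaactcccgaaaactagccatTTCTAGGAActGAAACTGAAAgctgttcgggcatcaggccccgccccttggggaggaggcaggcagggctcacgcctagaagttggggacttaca
Socs1: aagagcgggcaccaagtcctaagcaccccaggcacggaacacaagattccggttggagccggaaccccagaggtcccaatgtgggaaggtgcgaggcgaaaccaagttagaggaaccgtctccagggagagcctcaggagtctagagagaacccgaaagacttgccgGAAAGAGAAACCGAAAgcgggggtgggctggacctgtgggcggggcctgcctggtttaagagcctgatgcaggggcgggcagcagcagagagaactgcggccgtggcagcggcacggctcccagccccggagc

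Genes of MHC class I antigen processing rose, from subunits of the proteasome to heavy chains at the cell surface. The 5 genes of the immunoproteasome and its activator rose (3 with at least 10 counts required in every well): Psmb9 (4.96), Psmb8 (4.43), Psmb10 (3.73), Psme2 (2.83) and Psme1 (2.25). Tap1 (ENSMUSG00000037321), a chain of the transporter that carries peptides into the endoplasmic reticulum, had 18.7, 24.3, 23.1 and 18.8 CPM in untreated wells and 348, 349, 343 and 335 CPM with both factors, a log2FC of 4.01 ± 0.12 (adjusted p = 2.05e-53). The groups did not overlap. Of 16 genes of class I presentation tested, 13 rose and 0 fell (8 rose with at least 10 counts required in every well), with a median log2FC of 2.66. The heavy chain H2-K1 rose by 2.35 ± 0.07, from 197 ± 22.9 to 1007 ± 32.8 CPM (mean ± SD, n = 4). The nonclassical H2-T23 rose by 4.26 ± 0.13, the loading factor Tapbp by 2.77 ± 0.08, and Nlrc5, a transactivator of class I genes, by 3.96. B2m, the light chain, rose by 1.33. The 3 genes that did not pass were the general chaperones Calr (0.06), Canx (-0.15) and Pdia3 (0.09). None of 4 class II genes tested was called in either direction, among them Cd74 (0.14, adjusted p = 0.453) and H2-Ab1 (0.08, adjusted p = 0.917).

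Of 7 chemokines tested, 4 rose and 0 fell (3 to 4 rose over the alternative fits, filters and thresholds). Cxcl10 (ENSMUSG00000034855), which attracts CXCR3-bearing T cells, had 31.1, 39.5, 26.4 and 38.8 CPM in untreated wells and 161, 187, 144 and 116 CPM with both factors, a log2FC of 2.16 ± 0.15 (adjusted p = 7.35e-24). Ccl2 (ENSMUSG00000035385), a monocyte attractant, had 80.2, 65.6, 70.5 and 65.8 CPM in untreated wells and 406, 570.1, 446 and 451 CPM with both factors, a log2FC of 2.72 ± 0.10 (adjusted p = 8.62e-44). In both genes the wells of the groups did not overlap. Cx3cl1 rose by 2.04 ± 0.14 and Ccl7, with 10 counts over the untreated wells, by 2.53 ± 0.45 (ratio of rates 6.01, exact 95% counting interval 3.02 to 13.3). Cxcl9, the other well-known CXCR3 ligand of the interferon response, had 41.6 ± 9.30 CPM in untreated wells and 46.5 ± 6.87 with both factors, with overlapping wells and a log2FC of 0.17 ± 0.17 (adjusted p = 0.671). Ccl5 was at -0.21 ± 0.16 (adjusted p = 0.536).

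Among 9 cytokines, receptors and binders tested, 5 rose and 1 fell (1 and 1 with at least 10 counts required in every well, which leaves out genes near 0 in untreated wells). Besides Il18bp, the receptor chain Il15ra, its ligand Il15 and the receptor chain Il13ra1 rose from 5, 8 and 11 counts over the untreated wells. Their ratios of rates were 21.5 (exact 95% counting interval 8.87 to 67.7), 9.58 (exact 95% counting interval 4.59 to 23.1) and 9.22 (exact 95% counting interval 4.90 to 19.2). Csf1, the growth factor of macrophages, rose by 1.00 ± 0.10 on the log2 scale. Il33 (ENSMUSG00000024810), a nuclear alarmin of the interleukin-1 family, had 328, 319, 345 and 323 CPM in untreated wells and 119, 179, 138 and 168 CPM with both factors. Its wells did not overlap, and it fell by 1.12 on the log2 scale (adjusted p = 1.75e-21).

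Among 7 checkpoint ligands tested, 1 rose and 1 fell (6.14% and 3.7% of all genes tested). The one that rose had too few counts in untreated wells to be tested when at least 10 were required in every well. Cd274 (ENSMUSG00000016496), the gene of PD-L1, had 3.11, 2.69, 6.61 and 2.35 CPM in untreated wells and 90.8, 82.2, 73.3 and 92.3 CPM with both factors, a log2FC of 4.50 ± 0.25 (adjusted p = 1.02e-30). With 15 counts over the untreated wells, the ratio of rates was 23.4 (exact 95% counting interval 13.98 to 42.4). All 4 untreated wells lay below every well with both factors. Lgals3 fell by 0.23 on the log2 scale (adjusted p = 8.75e-04), with overlapping wells. Lgals9 had 26.3 ± 9.20 and 31.8 ± 2.19 CPM and a log2FC of 0.26 ± 0.21 (adjusted p = 0.567).

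Among the lists, that of antiviral genes held the most genes that rose by number, though not by share, as class I presentation had 13 of 16. Of 20 tested, 15 rose and 0 fell, with a median log2FC of 1.69. Over the alternative fits, filters and thresholds 11 to 16 rose. Oas3, with 15 counts over the untreated wells, passed the filter on low counts through its wells with IFN-γ. The examples with the lowest adjusted p were Xaf1 (3.02 ± 0.14), Samhd1, which depletes deoxynucleotides (2.62 ± 0.09), the tethering protein Bst2 (2.04 ± 0.08) and Ifitm3, which blocks viral entry (1.38 ± 0.06). Isg15 rose by 2.03, Ifit3 by 2.34 and Oasl2 by 2.79. Rsad2 (0.20) and Oasl1 (0.04) were among the 5 that did not pass. The 6 members of the PARP and Dtx3l group, which modify proteins by ADP-ribose and ubiquitin, were tested and rose (2 with at least 10 counts required in every well), among them Parp9 (3.26), Parp14 (3.14), Dtx3l (2.97) and Parp12 (2.38).

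Of 10 nucleic acid sensors and adaptors, 6 rose and 0 fell (3 and 0 with at least 10 counts required in every well). Tmem173 (ENSMUSG00000024349), the gene of STING, had 98.8, 84.4, 82.6 and 101 CPM in untreated wells and 126, 139, 162 and 143 CPM with both factors. The wells did not overlap, and the log2FC of 0.63 ± 0.11 (adjusted p = 1.41e-06) was small beside that of Zbp1. Cgas, the enzyme that feeds STING, had 20.2, 10.8, 12.1 and 17.6 CPM in untreated wells and 20.4, 23.7, 23.3 and 24.5 CPM with both factors, a log2FC of 0.58 ± 0.26 that did not pass the test (adjusted p = 0.17) although the wells did not overlap. The RNA sensors Ifih1 and Ddx58 rose by 1.74 ± 0.23 and 1.59 ± 0.20, and Ifi204 by 2.24 ± 0.12. Of 14 cell death genes tested, 4 rose and 0 fell (6.14% and 3.7% of all genes tested), and 3 to 6 rose over the alternative fits, filters and thresholds. The inflammatory caspase gene Casp4, with 6 counts over the untreated wells, rose by 4.11 ± 0.41 (ratio of rates 18.7, exact 95% counting interval 8.27 to 52.2), its substrate Gsdmd by 1.07 ± 0.18, the necroptosis effector Mlkl by 1.16 ± 0.13 and Bak1 by 0.62. The BCL2 family genes Bcl2, Bcl2l1 and Mcl1 were at -0.04, 0.05 and -0.03 and did not pass. Wars, which encodes tryptophanyl-tRNA synthetase, rose by 3.90 ± 0.07 from 86.1 ± 7.40 to 1277 ± 78.5 CPM, and Serping1, an inhibitor of the first complement component, by 4.00 ± 0.16.

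In the Activin pathway itself, calls were made among ligands and antagonists. Of 10 ligands and antagonists tested, 5 rose and 1 fell (4 and 0 with at least 10 counts required in every well, where Bmp4 and Inhbb were not tested). Fst (ENSMUSG00000021765) had 605, 598, 619 and 643 CPM in untreated wells and 1611, 1664, 1638 and 1711 CPM with both factors, a log2FC of 1.43 ± 0.05 (2.69-fold, adjusted p = 1.59e-43). Fstl1, a follistatin-like glycoprotein, rose by 1.31 ± 0.07 from 231 ± 3.66 to 573 ± 23.7 CPM. Inhba, the subunit gene of Activin-A, had 61.5 ± 6.89 CPM in untreated wells and 85.6 ± 8.06 with both factors, a log2FC of 0.49 ± 0.13 (adjusted p = 0.00516), and Inhbb, the subunit of Activin-B, rose by 1.61 ± 0.31. Bmp2 rose by 0.30, a call lost without untreated replicate 4 or both factors replicate 3 or 4 (adjusted p up to 0.0906). Bmp4 (ENSMUSG00000021835), a ligand of the BMP branch, had 34.2, 31.4, 24.2 and 22.3 CPM in untreated wells and 9.08, 10.1, 4.45 and 12.9 CPM with both factors, and fell by 1.65 on the log2 scale (adjusted p = 4.19e-06). In each of these 6 genes the wells of the groups did not overlap. Fst, Fstl1, Inhbb and Bmp2 were also called for IFN-γ alone against untreated in each of 8 fits that leave out a well. Bmp4 lost that call in 3 of 8. For Activin-A alone against untreated, Inhba and Fstl1 were called in each of 8 such fits, and Fst in all but 1. None of 12 receptor and Smad genes was called, and their median log2FC was -0.21, with Tgfbr3 at -0.69 (adjusted p = 0.125) and Smad3 at -0.37 (adjusted p = 0.141).

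Of 16 Smad2/3 targets and feedback genes, 4 rose and 1 fell (6.14% and 3.7% of all genes tested), with a median log2FC of 0.12. Ccn2 (ENSMUSG00000019997), a matricellular protein and a common readout of Smad3, had 126, 151, 132 and 127 CPM in untreated wells and 431, 372, 423 and 398 CPM with both factors, a log2FC of 1.60 ± 0.08 (adjusted p = 1.94e-33). Thbs1, the gene of thrombospondin-1, rose by 0.92 ± 0.06 and Ccn1 by 1.14 ± 0.08. Pmepa1, which restrains Smad activation, had 38.7 ± 7.87 CPM in untreated wells and 59.4 ± 13.4 with both factors. Its wells overlapped, the log2FC was 0.63 ± 0.18 (adjusted p = 0.00954), and the call of Pmepa1 was lost without untreated replicate 1 or both factors replicate 3 (adjusted p = 0.0944 to 0.141). Tgfbi fell by 0.55 on the log2 scale (adjusted p = 9.52e-06). Skil, a Smad corepressor, had 13.9 ± 5.39 and 9.94 ± 2.98 CPM and a log2FC of -0.48 ± 0.33 that did not pass (adjusted p = 0.461), and Smad7 was at 0.11. Of 4 Id genes, which report BMP signaling, Id3 rose by 0.28 ± 0.08 with overlapping wells, and the call of Id3 was lost without untreated replicate 4 or both factors replicate 1 (adjusted p = 0.0542 to 0.0652).

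Contractile and matrix genes moved in both directions, beside 6.14% called higher and 3.7% called lower over all genes tested. Of 9 contractile and actin-binding genes, 5 rose, by small amounts. Acta2 (ENSMUSG00000035783), smooth muscle actin, had 445, 408, 441 and 494 CPM in untreated wells and 701, 657, 668 and 714 CPM with both factors, a log2FC of 0.62 ± 0.06 (adjusted p = 4.87e-15). Cald1 rose by 0.56 ± 0.08, Cnn2 by 0.54 ± 0.06 and Flna by 0.25 ± 0.05. Tagln2 rose by 0.18 ± 0.06, and the call of Tagln2 was lost without untreated replicate 2 or both factors replicate 1 (adjusted p = 0.102 to 0.256). The 1 contractile gene that fell was Tpm2 (-0.20 ± 0.07), and the call of Tpm2 was lost without untreated replicate 1, untreated replicate 3, untreated replicate 4, both factors replicate 1 or both factors replicate 4 (adjusted p = 0.0624 to 0.248). Among 13 collagens 1 rose and 6 fell. Col6a1 had 209 ± 24.5 CPM in untreated wells and 90.2 ± 8.11 with both factors and fell by 1.21 on the log2 scale (adjusted p = 3.87e-18), its partner chain Col6a2 fell by 1.27, Col3a1 by 0.67, Col1a1 by 0.61, Col18a1 by 0.38 and Col4a2 by 0.32. The call of Col1a1 was lost without both factors replicate 3 (adjusted p = 0.0847). Col8a1 rose by 0.52 ± 0.08. Of 10 matrix glycoproteins and proteoglycans, Bgn rose by 0.57 ± 0.06, Loxl1 by 0.46 ± 0.10 and Fbn1 by 1.00 ± 0.31, while Sparc fell by 0.47. Leaving out wells mattered for 1 of these, as the call of Fbn1 was lost without untreated replicate 4 or both factors replicate 2 (adjusted p = 0.0708 to 0.0734). Fn1 was at -0.04 and did not pass. Among 12 proteases and inhibitors, Adamts1 (1.19) and Timp1 (0.25) rose, and Plat, tissue plasminogen activator, and Timp2 (-0.24) fell.

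The 12 genes with the lowest log2FC, chosen by the same rule, included chains of neurofilaments and of collagen VI, and their changes were far smaller than those of the genes that rose most. Nefl (ENSMUSG00000022055), the light neurofilament chain, had 672, 703, 647 and 677 CPM in untreated wells and 213, 206, 203 and 195 CPM with both factors, and fell by 1.72 on the log2 scale (adjusted p = 3.26e-41). Its spread within each group was small beside the difference. Nefm, the medium chain, fell by 1.53 ± 0.20. Tenm4 (ENSMUSG00000048078), a teneurin of cell contacts, had 21.8, 18.0, 15.4 and 23.5 CPM in untreated wells and 1.13, 5.63, 6.67 and 2.34 CPM with both factors, and fell by 2.28 (adjusted p = 3.13e-06). The lowest 2 of its wells with both factors lie below the limit of 3 counts, so that the size of the fall is imprecise, with a ratio of rates of 0.201 (exact 95% counting interval 0.105 to 0.357). The scaffold protein gene Akap12 fell by 1.96, the phagocytic receptor gene Mertk by 1.41, the protease inhibitor gene Cst6 by 1.29, and the dehydrogenase genes Aldh3a1 and Adh7 by 1.37 and 1.18. Bmp4, Col6a1 and Col6a2 were also among the 12.

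In several programs the share of genes called was near or below the 9.84% of all genes tested. Of 7 melanocyte genes tested, 0 were called (lowest adjusted p = 0.0707), with Dct at 0.00 and Tyrp1 at 0.33. Of 17 S phase genes Rrm2 rose (0.26 ± 0.08), and of 20 genes of G2 and mitosis Top2a rose (0.30 ± 0.07) and Ccnb2 fell (-0.24 ± 0.08), with Mki67 at -0.04. The calls of Rrm2 and Ccnb2 were lost without some wells: the call of Rrm2 was lost without untreated replicate 4 or both factors replicate 3 (adjusted p = 0.0721 to 0.251), and the call of Ccnb2 was lost without untreated replicate 1, untreated replicate 3, untreated replicate 4, both factors replicate 1, both factors replicate 2 or both factors replicate 4 (adjusted p = 0.0533 to 0.243). Of 11 p53 targets Phlda3 fell (-0.34 ± 0.11), and the call of Phlda3 was lost without untreated replicate 1, untreated replicate 2, untreated replicate 3, both factors replicate 2, both factors replicate 3 or both factors replicate 4 (adjusted p = 0.0769 to 0.157). Cdkn1a had 103, 123, 116 and 90.5 CPM in untreated wells and 146, 103, 118 and 103 CPM with both factors, with overlap and a log2FC of 0.11 ± 0.11 (adjusted p = 0.661). None of 7 NF-κB genes, 15 genes of amino acid stress and 18 sterol genes was called, and their median log2FC was 0.07, 0.05 and 0.03.

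A few genes of other programs were called, beside 9.84% of all genes tested (6.14% higher and 3.7% lower). Among 16 genes of MAPK output, which is constitutively driven in Braf-mutant cells, Egr1 rose by 0.93 ± 0.15, Dusp6 by 0.67 ± 0.09 and Phlda1 by 0.25 ± 0.07, and the call of Phlda1 was lost without untreated replicate 2, untreated replicate 3 or both factors replicate 2 (adjusted p = 0.0537 to 0.0692). Among 14 hypoxia genes Bnip3 rose by 0.62 ± 0.09, Vegfa by 0.56 ± 0.15 and Slc2a1 by 0.30 ± 0.10, and the call of Slc2a1 was lost without untreated replicate 1, untreated replicate 2, untreated replicate 4, both factors replicate 1 or both factors replicate 3 (adjusted p = 0.0542 to 0.159). Vegfa had an adjusted p of 0.0523 with DESeq2. Of 8 regulators of mesenchymal transition 1, Twist1, rose (0.45 ± 0.07), a share near the 9.84% called of all genes tested. Snai1 (-0.10), Zeb1 (-0.13) and Vim (0.01) did not pass. Among 74 ribosomal protein genes 8 were called lower and 0 higher (3.7% and 6.14% of all genes tested), with a median log2FC of -0.10. The ribosomal share of counts given above was also lower, and its part in other results was not tested.

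**Figure D2:**
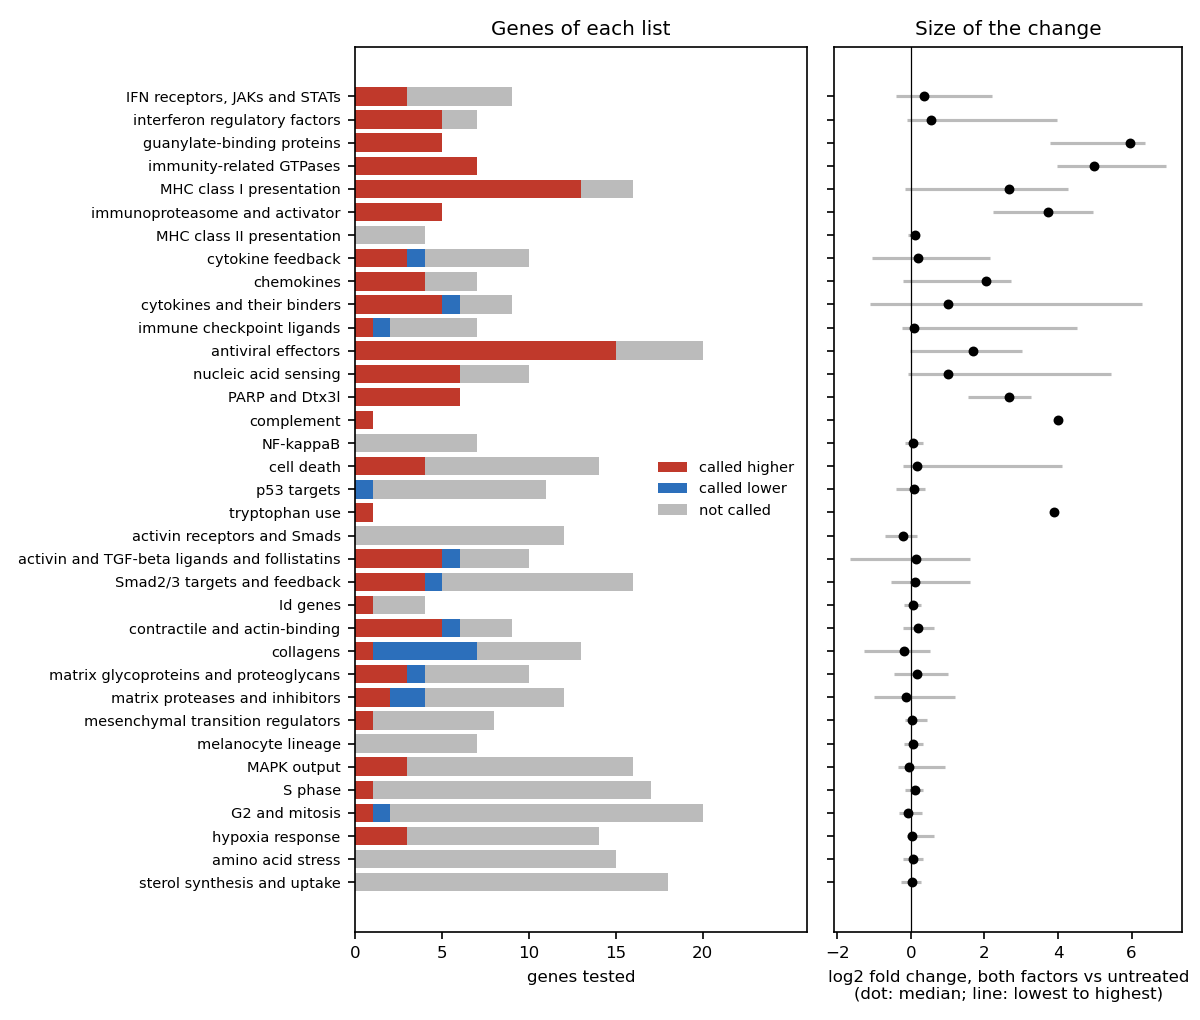
For each gene list, the left panel gives the number of tested genes called higher, called lower and not called for both factors against untreated at 12 hrs, and the right panel the median log2FC (dot) with the lowest and highest (line). Of the lists plotted, the antiviral effectors have the most genes called higher, 15 of 20, and the collagens have the most genes called lower, 6 of 13.

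The other 12-h wells show the level of the same genes under each factor alone. Both factors against IFN-γ alone called 92 of 8971 genes (1.03%), 41 higher and 51 lower, and both factors against Activin-A alone called 863 (9.62%), 554 higher (6.18%) and 309 lower (3.44%). IFN-γ alone against untreated called 830 (9.25%), 577 higher (6.43%) and 253 lower (2.82%), and Activin-A alone called 216 (2.41%), 112 higher (1.25%) and 104 lower (1.16%). These comparisons share the wells with both factors or the untreated wells, so their calls are not independent of those above. Gbp2 was at 4831 ± 113 CPM with IFN-γ alone and 4534 ± 107 with both, a log2FC of -0.09 ± 0.05 (adjusted p = 0.48), and 64.9 ± 4.89 with Activin-A alone. Of the 12 listed guanylate-binding and immunity-related GTPases, 0 were called against IFN-γ alone, and the same holds for Irf1 (0.02), Tap1 (-0.19) and Cd274 (-0.05).

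A set of inducible genes was lower with both factors than with IFN-γ alone, although each was called higher than untreated. Of the 20 antiviral genes 6 were called lower, Ifi44 (-0.76), Ifit3 (-0.58), Oasl2 (-0.54), Isg15 (-0.45), Ifitm3 (-0.30) and Oas3 (-0.82), against 0.568% of all genes tested. Ccl2 had 879, 857, 638 and 827 CPM with IFN-γ alone, above every well with both factors, a log2FC of -0.77 ± 0.07 (adjusted p = 7.70e-15). Cxcl10 had 222, 318, 188 and 229 CPM with IFN-γ alone, and the difference was -0.65 ± 0.10 (adjusted p = 5.21e-06). Irf7 (-0.64 ± 0.14), Ddx58 (-0.65 ± 0.14), Ifih1 (-0.62 ± 0.16), H2-K1 (-0.24 ± 0.06) and H2-T23 (-0.31 ± 0.07) were also called lower. The call was lost for Oas3 in 6 of 8 fits that leave out a well (adjusted p up to 0.177), for Ifih1 in 6 of 8 (up to 0.134), for H2-T23 without both factors replicate 1 or 3 (up to 0.0881), for Ddx58 without both factors replicate 4 (0.0801) and for H2-K1 without IFN-γ replicate 2 (0.0575). Among genes higher than with IFN-γ alone were 5 of the 9 contractile genes and 4 of the 16 Smad2/3 targets, against 0.457% of all genes tested. Of the targets 1, Tgfbi, was called lower, a call lost without IFN-γ replicate 1 or 2 or both factors replicate 2 (adjusted p up to 0.135). Ccn2, at 143 ± 8.63 CPM in IFN-γ wells and 406 ± 26.9 in combined wells, was called, as were Acta2 (0.91 ± 0.06), Thbs1 (0.78 ± 0.06) and Bgn (0.56 ± 0.06).

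Against Activin-A alone, 5 of 16 Smad2/3 targets were called lower and 2 higher with both factors, against 3.44% and 6.18% of all genes tested. Ccn2 had 512, 459, 453 and 558 CPM with Activin-A alone and was lower with both factors by 0.28 on the log2 scale (adjusted p = 0.00116). Pmepa1 had 182, 103, 107 and 168 CPM with Activin-A alone, above every well with both factors, a difference of -1.24 ± 0.14 (adjusted p = 2.13e-12). Skil, at 24.4 ± 7.18 CPM with Activin-A alone, was lower with both factors by 1.26 (adjusted p = 8.27e-04). Ski and Smurf2 were at -0.46 and -0.47, and Ccn1 and Smurf1 at 0.22 and 0.43. These 4 calls depended on single wells, as Ski lost its call without Activin-A replicate 4 (adjusted p = 0.0508), Smurf1 without Activin-A replicate 1, both factors replicate 3 or both factors replicate 4 (up to 0.113), and Ccn1 and Smurf2 each without Activin-A replicate 1, Activin-A replicate 3, both factors replicate 1 or both factors replicate 3 (up to 0.194 and 0.0823). Il33 was at 167 ± 18.9 CPM with Activin-A alone, 276 ± 8.99 with IFN-γ alone and 151 ± 27.6 with both, and both factors were not called against Activin-A alone (-0.14 ± 0.10, adjusted p = 0.479).

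**Figure D3:**
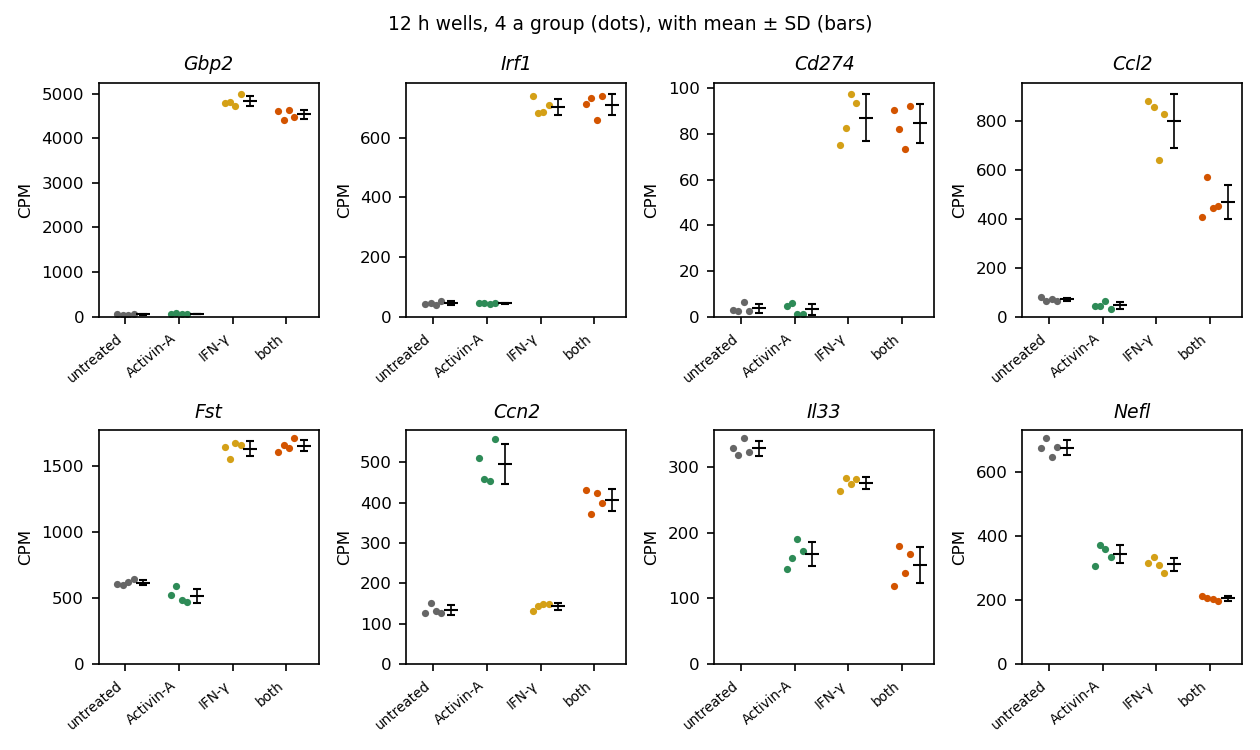
CPM of 8 genes in each 12-h well (dots, 4 a group) with the group mean ± SD, on linear axes that start at 0. Gbp2, Irf1, Cd274 and Fst with both factors lie near the IFN-γ wells, Ccn2 and Il33 near the Activin-A wells, Ccl2 between the single factors, and Nefl, at 204 ± 7.53 CPM, below both.

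Genes for which both factors differed from untreated and from each single factor in the same direction numbered 5 higher (0.0557% of those tested) and 8 lower (0.0892%); the 3 comparisons share the wells with both factors. The 5 were Fstl1, Ccn1, Csf1, Usp39 and Dtl, and the 8 were Nefl, Adh7, Chrna1, Igfbp3, Areg, Nptx1, Crabp1 and Rps3. Fstl1 had 364, 345, 325 and 307 CPM with Activin-A alone, 425, 457, 415 and 478 CPM with IFN-γ alone and 541, 587, 595 and 569 CPM with both, so that the wells of the 3 groups did not overlap. Nefl had 306, 371, 359.9 and 333 CPM with Activin-A alone and 315, 335, 309 and 285 CPM with IFN-γ alone, and each well with both factors was below all of them. Adh7, an alcohol dehydrogenase that oxidizes retinol, was at 219 ± 11.4 CPM in untreated wells, 127 ± 12.2 with Activin-A alone, 136 ± 12.9 with IFN-γ alone and 96.4 ± 8.62 with both. Chrna1, a subunit of the muscle acetylcholine receptor, was at 254, 260.2, 169 and 126 CPM in the same order, and Igfbp3, a binder of insulin-like growth factors, at 2668 ± 132, 2534 ± 279, 1804 ± 71.5 and 1542 ± 50.6 CPM.

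At least 1 of the calls against the single factors was lost for 11 of these 13 genes when 1 well was left out, and Fstl1 and Nefl kept theirs in each such fit. Against IFN-γ alone the calls of Csf1, Nptx1 and Dtl were lost in 6 of 8, 7 of 8 and 4 of 8 fits, and against Activin-A alone those of Areg, Usp39 and Dtl in 7 of 8, 6 of 8 and 5 of 8 fits. For Dtl and Usp39 the call against untreated was lost as well: the call of Dtl was lost without untreated replicate 2, untreated replicate 3, untreated replicate 4 or both factors replicate 3 (adjusted p = 0.0551 to 0.189), and the call of Usp39 was lost without untreated replicate 2, untreated replicate 3, untreated replicate 4, both factors replicate 1 or both factors replicate 4 (adjusted p = 0.0501 to 0.115).

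For 38 of 8971 genes (0.424%) IFN-γ alone and Activin-A alone were called in opposite directions. Both calls use the same untreated wells. With both factors 22 of them were not called against untreated, 15 were called with the sign of IFN-γ and 1, Acta2, with that of Activin-A. The 8 with the lowest adjusted p are described with their level under both factors. Leaving out 1 well ended none of these single-factor calls. Dmp1, an acidic matrix phosphoprotein, had 90.3, 126, 111 and 103 CPM in untreated wells, 161, 141, 159 and 221 CPM with Activin-A alone, 52.2, 36.6, 50.9 and 47.6 CPM with IFN-γ alone and 123, 92.4, 110.0 and 129 CPM with both. The wells with both factors overlapped the untreated wells, with a log2FC of 0.08 ± 0.12 (adjusted p = 0.807). Tpm1 (0.04), Spp1, the gene of osteopontin (-0.10), and Fam198b (-0.30) were likewise not called against untreated. Acta2 had 705 ± 29.5 CPM with Activin-A alone, 364 ± 18.8 with IFN-γ alone and 685 ± 26.9 with both, and lay on the side of Activin-A. Col18a1 had 431 ± 55.9, 233 ± 20.7 and 243 ± 14.6 CPM in that order and lay on the side of IFN-γ, as did Sh3bgrl3 (-0.39, 0.57 and 0.38 against untreated) and Arl6ip5 (-0.38, 0.55 and 0.32).

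**Figure D4:**
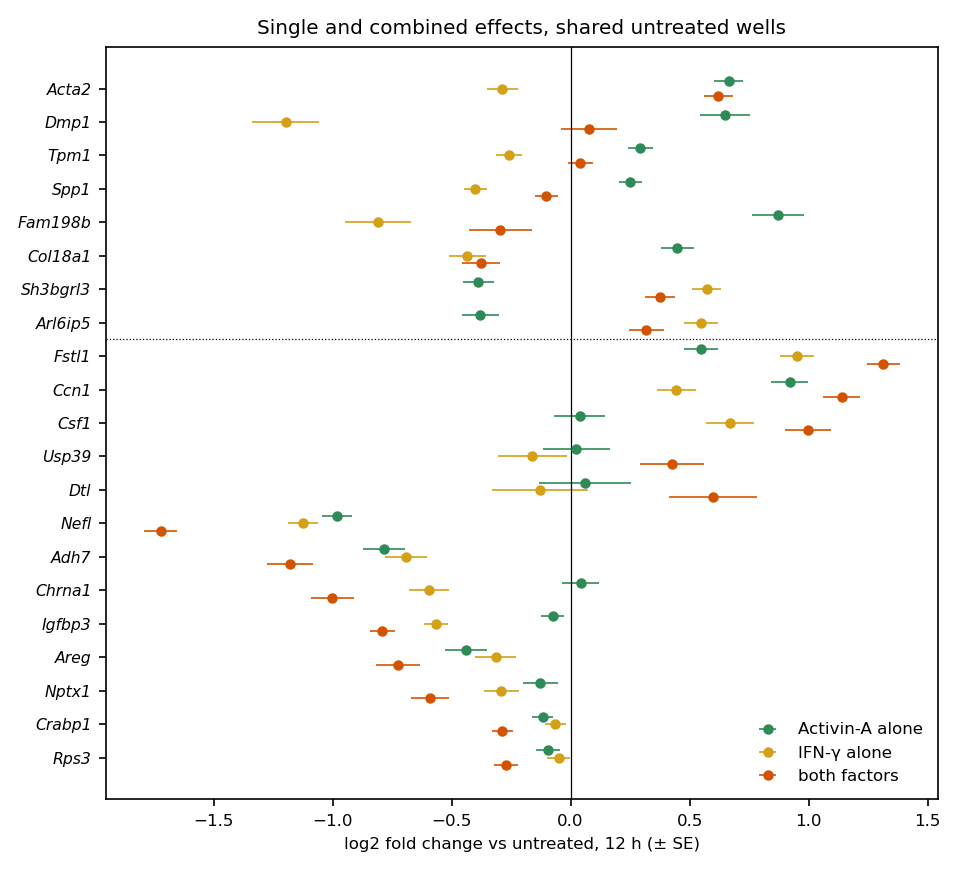
Log2FC against untreated at 12 hrs (± SE) for Activin-A alone, IFN-γ alone and both factors, which share the 4 untreated wells. Above the dotted line are the 8 genes called in opposite directions for the single factors, and below it the 13 genes in which both factors went beyond each of them, with Nefl reaching -1.72.

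Whether the combined effect equals the sum of the single effects on the log2 scale was tested for each gene. Of 8971 genes 1 was called (0.0111%), and 612 had an unadjusted p under 0.05 (6.82%); DESeq2 called 0. The gene was Cth (ENSMUSG00000028179), which encodes cystathionine gamma-lyase, an enzyme that makes cysteine. It had 37.4, 42.2, 41.9 and 48.2 CPM in untreated wells, 67.5, 72.8, 73.4 and 74.5 CPM with Activin-A alone, 65.6, 55.5, 55.3 and 64.2 CPM with IFN-γ alone and 35.2, 55.2, 56.7 and 56.1 CPM with both. Each factor alone was above untreated, by 0.77 ± 0.14 and 0.52 ± 0.15, whereas both together were at 0.28 ± 0.16 (adjusted p = 0.359), a departure of -1.02 ± 0.21 (adjusted p = 0.0359). The call for IFN-γ alone was lost without untreated replicate 1 or IFN-γ replicate 4 (adjusted p up to 0.0803). Replicate 1 with both factors lay below the other 3, and without it the departure was -0.88 (adjusted p = 0.109). The call was also lost without untreated replicate 1, 2 or 3, Activin-A replicate 3, or IFN-γ replicate 1 or 4 (adjusted p = 0.0771 to 0.114). For Nefl the departure was 0.38 ± 0.10 (adjusted p = 0.18), for Pmepa1 -0.94 ± 0.25 (adjusted p = 0.18) and for Dmp1 0.63 ± 0.18 (adjusted p = 0.231).

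The 4-h wells, which share no well with those at 12 hrs, gave 666 calls of 9137 genes tested (7.29%), 464 higher (5.08%) and 202 lower (2.21%). Of the genes called higher at 12 hrs that were tested at 4 hrs, 334 of 538 (62.1%) were called higher there too, and 73.9% of those called higher at 4 hrs and tested at 12 hrs were called higher at 12 hrs. Of those called lower at 12 hrs, 83 of 329 (25.2%) were also lower at 4 hrs, and 41.7% of the 199 genes called lower at 4 hrs and tested at 12 hrs were called lower at 12 hrs. 1 gene called lower at 12 hrs, Tgfbi, was called higher at 4 hrs, and 0 the reverse. The difference between the responses was tested on 9332 genes over 32 wells and called 84 (0.9%), 50 with a higher log2FC at 12 hrs (0.536%) and 34 with a lower one (0.364%).

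Among the 16 genes of MHC class I presentation 7 were called with a higher log2FC at 12 hrs and 0 with a lower one. Of these 7, H2-T22 lost the call in 6 of 16 fits that leave out a well (adjusted p up to 0.219) and Erap1 without untreated replicate 1 at 4 hrs (0.0654). H2-K1 went from 0.77 ± 0.08 at 4 hrs to 2.35 ± 0.07 at 12 hrs (difference 1.59 ± 0.10, adjusted p = 4.12e-22), H2-T23 from 2.56 to 4.26 and Tapbp from 1.82 to 2.77. The surface protein gene Ly6a went from 2.98 to 4.57 (difference 1.60 ± 0.18) and Serping1 from 2.13 to 4.00 (difference 1.88 ± 0.32). Irf1 was not called, with a difference of -0.29 ± 0.15 (adjusted p = 0.589), and Irgm1 was higher at 4 hrs (4.53 against 3.97, adjusted p = 0.0297), a call lost in 6 of 16 fits that leave out a well (adjusted p up to 0.242). Cd274 (4.15 and 4.50) and Cxcl10 (2.31 and 2.16) were not called either.

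Of the 16 Smad2/3 targets, Pmepa1 and Tgfbi were called for the difference between times. Pmepa1 rose at 4 hrs by 2.40 ± 0.11 (adjusted p = 4.37e-26), from 55.6 ± 8.29 to 294 ± 15.2 CPM, and its log2FC at 12 hrs was lower by 1.76 ± 0.23 (adjusted p = 4.96e-08). Prss23, a serine protease, went from 1.69 to 0.35 (adjusted p = 0.00717; 0.0521 without untreated replicate 1 at 4 hrs), and Tgfbi from 0.28 to -0.55 (adjusted p = 9.24e-06). Ccn2 (1.37 and 1.60, adjusted p = 0.66) and Thbs1 (1.18 and 0.92, adjusted p = 0.24) were not called. Several genes that fell at 12 hrs had not been called at 4 hrs: Sparc went from 0.02 to -0.47 (adjusted p = 6.56e-07), Chrna1 from -0.18 to -1.0 (adjusted p = 4.26e-06), Tenm4 from 0.01 to -2.28 (adjusted p = 0.015), and Bmp4 from -0.03 to -1.65 (adjusted p = 0.0475). The call of Bmp4 was lost in 12 of 16 fits that leave out a well (adjusted p up to 0.178), and that of Tenm4 without both factors replicate 1 or 4 at 12 hrs (up to 0.0724). Nefl was called lower at both times (-1.17 and -1.72), more so at 12 hrs (adjusted p = 1.35e-04).

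**Figure D5:**
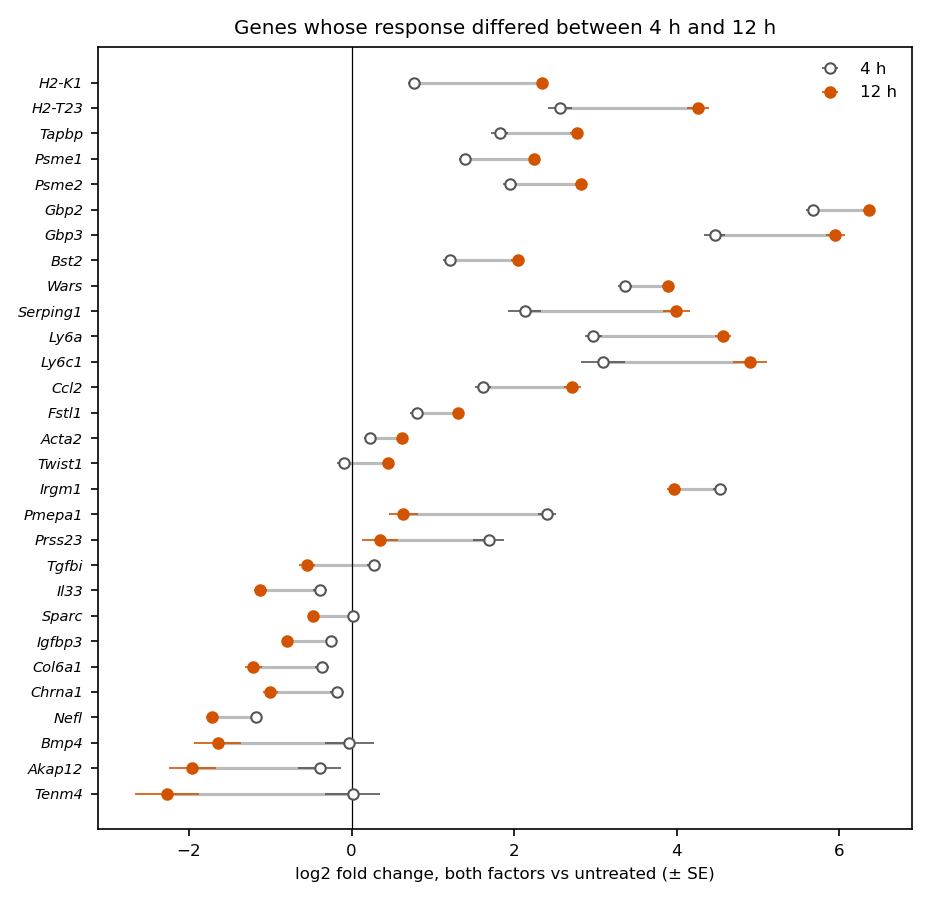
Log2FC of both factors against untreated (± SE) at 4 hrs (open circles) and 12 hrs (filled circles) for 29 genes whose responses differed between the times. The upper genes rose further by 12 hrs, as H2-K1 from 0.77 to 2.35, whereas Pmepa1 came down from 2.40 to 0.63 and Tenm4, Akap12 and Bmp4 have their low values at 12 hrs.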

How the data were processed

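YUMM3.3 cells in 6-well plates were profiled by BRB-seq (32 wells). The authors deposited raw counts per gene, integers without normalization, for 12451 Ensembl genes with a count above 0 in at least 4 wells. The submitters' processing notes name STAR 2.7.10b, featureCounts, DESeq2 1.36.0 and GRCm39 (mm39). Whether unique molecular identifiers were collapsed is not given in the sources used here, so that a count may include duplicates, and reads of near-identical genes could be split or dropped. Symbols were taken from an annotation of GRCm38, and gene positions are therefore not given, apart from those of the promoters shown.

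Wells were grouped by label. Genes were kept with filterByExpr, normalized by TMM and tested with edgeR 4.0.16 (glmQLFit and glmQLFTest, R 4.3.3) on the 16 wells at 12 hrs, with the 32 wells used for the difference between times. Calls had a Benjamini-Hochberg adjusted p under 0.05. Totals of 853021 to 1285540 counts set the precision of the 8 wells compared. Alternatives were DESeq2 1.42.0, RLE factors, no filter or 10 counts in every well, all 32 or only 8 wells, a replicate block, stricter thresholds and each well left out. The test was tried on simulated counts in which 100 genes changed by a log2 fold of 1 and 100 by 0.5. There edgeR recovered 81 and 48 of them with 9 false calls in all, and DESeq2 68 and 35 with 0. The changed genes left out those with the lowest levels and went up and down in equal number, whereas 551 rose and 332 fell here. The rates therefore do not carry over to genes near 0 in untreated wells. Promoters of RefSeq (GRCm38.p6) were searched on both strands for exact letters. Named genes were the 12 highest and 12 lowest changes with 10 or more counts on average and no overlap, called list members (up to 4 a direction by adjusted p, with further list members for context), genes named by the study, genes beyond each single factor, genes with opposed single effects, and the extremes of the time difference. A few genes are not reported here and were left out of the lists and their counts, but not of the fits. The comparison and the gene lists were chosen with earlier results of these data known. Replicate wells differed by more than the noise of counting. Figures used Python 3.11.15 and matplotlib 3.10.9.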

Additional observations from a re-analysis of the deposited data

Results flagged for a closer look

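In 17 of 326 groups of 4 wells examined, 1 well lay far from the other 3 by Dixon's ratio, where chance gives about 1 in 20. They were Gbp3 (lowest well 8.98 CPM, untreated), Tgtp1 (lowest well 40.9 CPM, both factors), Tgtp1 (highest well 1.18 CPM, untreated), Psmb10 (lowest well 32.7 CPM, untreated), Lgals3 (highest well 1350.0 CPM, both factors), Xaf1 (highest well 198 CPM, both factors), Gsdmd (highest well 37.4 CPM, untreated), Phlda3 (highest well 116 CPM, both factors), Wars (lowest well 1160.0 CPM, both factors), Cald1 (highest well 321 CPM, both factors), Adamts1 (lowest well 15.3 CPM, untreated), Ly6c1 (highest well 136 CPM, both factors), Cth (lowest well 35.2 CPM, both factors), S100a16 (highest well 317 CPM, both factors), Psmb8 (highest well 16.5 CPM, untreated), Irf8 (highest well 73.8 CPM, untreated) and Erap1 (lowest well 117 CPM, both factors).

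The log2FC of both factors against untreated differed between 12 and 4 hrs by edgeR's test of the difference in 42 of the genes described. It was higher at 12 hrs, by the log2 values given, in Ccl7 (2.91), Serping1 (1.88), Ly6c1 (1.82), H2-T23 (1.71), Ly6a (1.60), H2-K1 (1.59), Gbp3 (1.49), Ccl2 (1.11), Erap1 (1.09), Tapbp (0.96), H2-T22 (0.93), Ube2l6 (0.92), Psme2 (0.88), Psme1 (0.86), Bst2 (0.84), Gbp2 (0.70), B2m (0.69), Twist1 (0.55), Wars (0.54), Lap3 (0.54), Fstl1 (0.52), Bnip3 (0.50), Ifitm3 (0.42) and Acta2 (0.40). It was lower at 12 hrs in Crabp1 (-0.28), Col18a1 (-0.45), Sparc (-0.48), Nptx1 (-0.49), Igfbp3 (-0.53), Nefl (-0.54), Irgm1 (-0.56), Matn2 (-0.71), Il33 (-0.72), Chrna1 (-0.81), Tgfbi (-0.82), Col6a1 (-0.84), Col1a1 (-1.01), Prss23 (-1.33), Akap12 (-1.56), Bmp4 (-1.61), Pmepa1 (-1.76) and Tenm4 (-2.28). Leaving out 1 well at a time ended this call for Akap12 and Bmp4 in 12 of 16 fits (adjusted p up to 0.166 and 0.178), for Bnip3 and Crabp1 in 11 of 16 (up to 0.171 and 0.151), for Col1a1 in 9 of 16 (up to 0.0953), for Ly6c1 in 7 of 16 (up to 0.395), and for Irgm1 and H2-T22 in 6 of 16 (up to 0.242 and 0.219). It also ended for Col18a1 in 4 of 16 (up to 0.0719), for Wars in 3 of 16 (up to 0.106), for Erap1 without untreated replicate 1 at 4 hrs (0.0654), and for Ifitm3 and Acta2 without untreated replicate 2 at 12 hrs (0.0533 and 0.0512). Prss23 and Tenm4 lost it as given above.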

How the results depend on the processing

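The count of 883 genes for both factors against untreated was 876 with a replicate block (548 higher, 328 lower), 579 with DESeq2 and 544 with an added log2FC of at least 0.5, and 757 to 787 without 1 well (494 to 511 higher, 251 to 293 lower). The 332 lower genes became 175 with DESeq2, 189 at an adjusted p under 0.01 and 141 with the log2FC limit. Against IFN-γ the 92 calls became 54, 51 and 39 under the same alternatives, and 62 to 91 without 1 well. Against Activin-A the 863 became 550, 558 and 556, and 728 to 777. The departure gave 1 call, 0 with DESeq2 and at an adjusted p under 0.01, 8 with no filter on low counts, and 0 to 6 without 1 well. The time difference gave 84, 45 at an adjusted p under 0.01 and 56 to 77 without 1 well. Why the counts moved was not tested.

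Same-numbered wells did not deviate together (r = -0.018 to -0.008), and 0 of 4 wells with both factors correlated best with the untreated well of its number, so that the replicate number was not taken as a pairing. Of 151 genes described and called, 133 kept the call and its direction in every alternative fit or filter that tested them. The stricter thresholds were applied to the counts of calls only and are not among these alternatives. With DESeq2, 17 were not called (adjusted p = 0.0523 to 0.197), namely Jak2, Irf2, Irf8, Pmepa1, Bmp2, Tpm2, Tagln2, Col1a1, Fbn1, Phlda1, Phlda3, Rrm2, Ccnb2, Vegfa, Slc2a1, Usp39 and Dtl. Among genes not called, Cdkn1a was at -0.0088 without both factors replicate 1 (0.18 without untreated replicate 2), and Dmp1 at -0.012 without untreated replicate 1 (0.17 without untreated replicate 2). At this depth a gene not called is not shown to be unchanged.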

Other observations

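Genes outside the lists were looked at after their values were seen, and 12 are given here with untreated and both-factor levels (mean ± SD, n = 4). Batf2, a transcription factor of the AP-1 family, had 3.06 ± 0.680 and 98.5 ± 7.61 CPM (13 counts over the untreated wells, ratio of rates 31.5, exact 95% counting interval 18.2 to 59.7), and Ube2l6, the enzyme that conjugates ISG15, means of 39.3 and 289 CPM (2.85 ± 0.11). Tubb3, a tubulin best known from neurons, had 31.7 ± 2.37 and 241 ± 9.23 CPM (2.92 ± 0.12), opposite in direction to the neurofilament genes Nefl and Nefm. Tcf7, a transcription factor of Wnt signaling and T cells, had 45.7 ± 5.48 and 253 ± 10.1 CPM (2.47 ± 0.11), Lap3, a leucine aminopeptidase, 216 ± 17.4 and 784 ± 17.9 CPM (1.87 ± 0.07), and AA467197 308 ± 18.3 and 844 ± 70.3 CPM (1.46 ± 0.07). Their wells did not overlap, and each was called in every alternative that tested it. Batf2 was not tested with at least 10 counts required in every well.

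Lower with both factors were Matn2, a matrilin of the matrix, with 144 ± 2.98 and 77.8 ± 4.03 CPM (-0.88 ± 0.11), S100a16, a calcium-binding protein, with 449 ± 8.45 and 290.2 ± 17.6 CPM (-0.63 ± 0.07), and Cd93 with 381 ± 15.7 and 260.1 ± 13.7 CPM (-0.55 ± 0.07). The same held for Mgst3, a glutathione transferase (-0.54 ± 0.07), Clu, the gene of clusterin (-0.45 ± 0.06), and Cavin3, a coat protein of caveolae (-0.40 ± 0.05). Cavin3 had 941 ± 26.5 CPM with Activin-A alone and 1139 ± 35.9 with IFN-γ alone, and was called lower with both factors than with IFN-γ alone (-0.25 ± 0.05, edgeR adjusted p = 0.00158).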
